A study of Mus musculus with 20 samples.

Results

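The genes of oxidative phosphorylation were described in cells sorted from mouse leg muscle. They were taken by symbol, as the deposited gene names that begin with Nduf (followed by a, b, c, s or v and a number), Uqcr, Cox4 to Cox8 or Atp5, together with Sdha, Sdhb, Sdhc, Sdhd and Cyc1. This gave 85 of the 24393 genes in the count table, 37 of complex I, 4 of complex II, 9 of complex III, 18 of complex IV and 17 of complex V. The choice used names and no measured value. RNA came from quadriceps, tibialis anterior and gastrocnemius, and 20 libraries were sequenced. There were 4 libraries of FAP DKO and 4 of FAP WT, 4 of Misc DKO and 4 of Misc WT, but only 2 of SMP DKO and 2 of SMP WT. FAP usually stands for fibro-adipogenic progenitors, mesenchymal cells that lie in the interstitium of muscle, and SMP for skeletal muscle progenitors, cells of the satellite cell lineage; neither abbreviation is spelled out in the labels. The labels call the other population Misc or MISC, the design text lists FB in its place, and it is called Misc here. The labels give DKO and WT without naming the deleted genes, and state no strain, age, sex or treatment. From knowledge of the study they were taken to be Des (desmin) and Syne1 (nesprin-1). Replicates are described as biological, with nothing on animals per library, so the p-values measure the spread between these libraries.

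Oxidative phosphorylation is the chain of protein complexes in the inner mitochondrial membrane that passes electrons from NADH and succinate to oxygen and uses the resulting proton gradient to make ATP. Complex I takes electrons from NADH, complex II (succinate dehydrogenase) from succinate, complex III passes them to cytochrome c, complex IV (cytochrome c oxidase) reduces oxygen, and complex V is the ATP synthase. A small share of the subunits is encoded in mitochondrial DNA; the genes described here are all nuclear. Muscle fibres and heart use their own isoforms of several complex IV subunits, and quiescent satellite cells are known for few mitochondria, which become more numerous on activation.

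The libraries held between 5826000 and 17730111 counts, and the SMP DKO libraries were the 2 shallowest, at 6124928 and 5826000 counts. Des was lower in DKO cells of all 3 populations, by a log2 fold change of −1.81 ± 0.18 in FAP, −1.25 ± 0.25 in Misc and −1.45 ± 0.19 in SMP (± standard error here and below; adjusted p at most 0.00094). Syne1 had log2 fold changes of −0.31 ± 0.12 in FAP, which did not pass (adjusted p = 0.11), −0.69 ± 0.12 in Misc and −1.03 ± 0.18 in SMP. Markers of other cell types separated the 2 SMP DKO libraries. Replicate 2 summed to 566 CPM (counts in 1000000 counts, with library totals adjusted by edgeR's TMM factors) over 11 mature muscle fibre markers, 312 CPM over 7 immune markers and 3080 CPM over 5 FAP markers, against 184, 27.7 and 752 CPM in replicate 1. In SMP WT the same sums were 35.7 and 52.1 CPM for fibre markers, 24.5 and 18.3 CPM for immune markers and 1410 and 1600 CPM for FAP markers. Satellite cell markers summed to 3150 and 3090 CPM in SMP DKO and 3850 and 3810 CPM in SMP WT. The main results that rest on SMP DKO libraries are therefore also given without replicate 2.

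Of the 85 genes, 81 passed the filter on low counts and entered the tests among 14179 genes. Those left out were Cox6a2, the muscle and heart isoform of subunit 6a, with 48 counts over all libraries, Cox7b2 with 1 count, and Ndufs5 and Cox8c with 0. Ndufs5, a complex I subunit, is broadly expressed, and whether its 0 in every library comes from annotation or counting was not tested, so it is not read as absence. Fold changes are given as log2 ratios of CPM, and a gene was called higher or lower when its p-value from edgeR's quasi-likelihood test, adjusted by Benjamini-Hochberg over all 14179 genes, was below 0.05. Per exon length (RPKM, the CPM divided by exon length in kilobases), Atp5b, the catalytic beta subunit of ATP synthase, was the highest of the 85 in every group, at 233 RPKM in FAP DKO, 230 in FAP WT, 239 in Misc DKO, 203 in Misc WT, 410 in SMP DKO and 293 in SMP WT. Cox4i1, the ubiquitous isoform of complex IV subunit 4, stood at 122 RPKM in FAP DKO, 128 in FAP WT, 126 in Misc DKO, 98.1 in Misc WT, 183 in SMP DKO and 110 in SMP WT. Atp5a1, the alpha subunit, averaged 107 RPKM in FAP DKO, 113 in FAP WT, 108 in Misc DKO, 101 in Misc WT, 158 in SMP DKO and 127 in SMP WT.

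In SMP, genes of each of the 5 complexes rose in DKO. Of the 81 tested, 33 rose, 0 fell and 48 did not pass, against a background of 11.8% of all genes tested that rose and 11.2% that fell. The median log2 fold change was 0.53 over the 81 genes and 0.01 over all genes tested, and 77 of the 81 had a value above 0. The rise took in 11 of 36 genes of complex I, 2 of 4 of complex II, 5 of 9 of complex III, 6 of 15 of complex IV and 9 of 17 of complex V, with medians of 0.49, 0.52, 0.51, 0.57 and 0.53 in that order of complexes. The 33 called genes ran from 0.46 (Cox7a2l) to 1.34 (Uqcrq), and in each of them both DKO libraries lay above both WT libraries. With 2 libraries a group a call makes that order likely, so it is no further support. The share over all genes was not counted. Libraries were bulk populations, so fewer cells of a type and less RNA per cell cannot be told apart in any of these values.

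Summed over the 85 genes, SMP DKO libraries held 4016 and 4095 CPM, against 2704 and 3141 CPM in SMP WT, a ratio of means of 1.39. The ratio was 1.34 for complex I, 1.16 for complex II, 1.43 for complex III, 1.55 for complex IV and 1.39 for complex V, and the DKO and WT libraries did not overlap in any of these sums. The fibre marker sum was 184 and 566 CPM in replicates 1 and 2 of SMP DKO and 35.7 and 52.1 CPM in SMP WT. Both DKO libraries thus lay above both WT libraries in that sum too. The part of fibre RNA in the summed level of the 85 genes was not tested. With any of the 4 SMP libraries left out, 1 group held a single library, and fewer genes of the set were called. The number of all genes called also moved between these fits, so fold changes are given here. The median over the 81 genes lay between 0.41 and 0.62 in these fits, and that over all genes tested between −0.06 and 0.03.

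**Figure D1:**
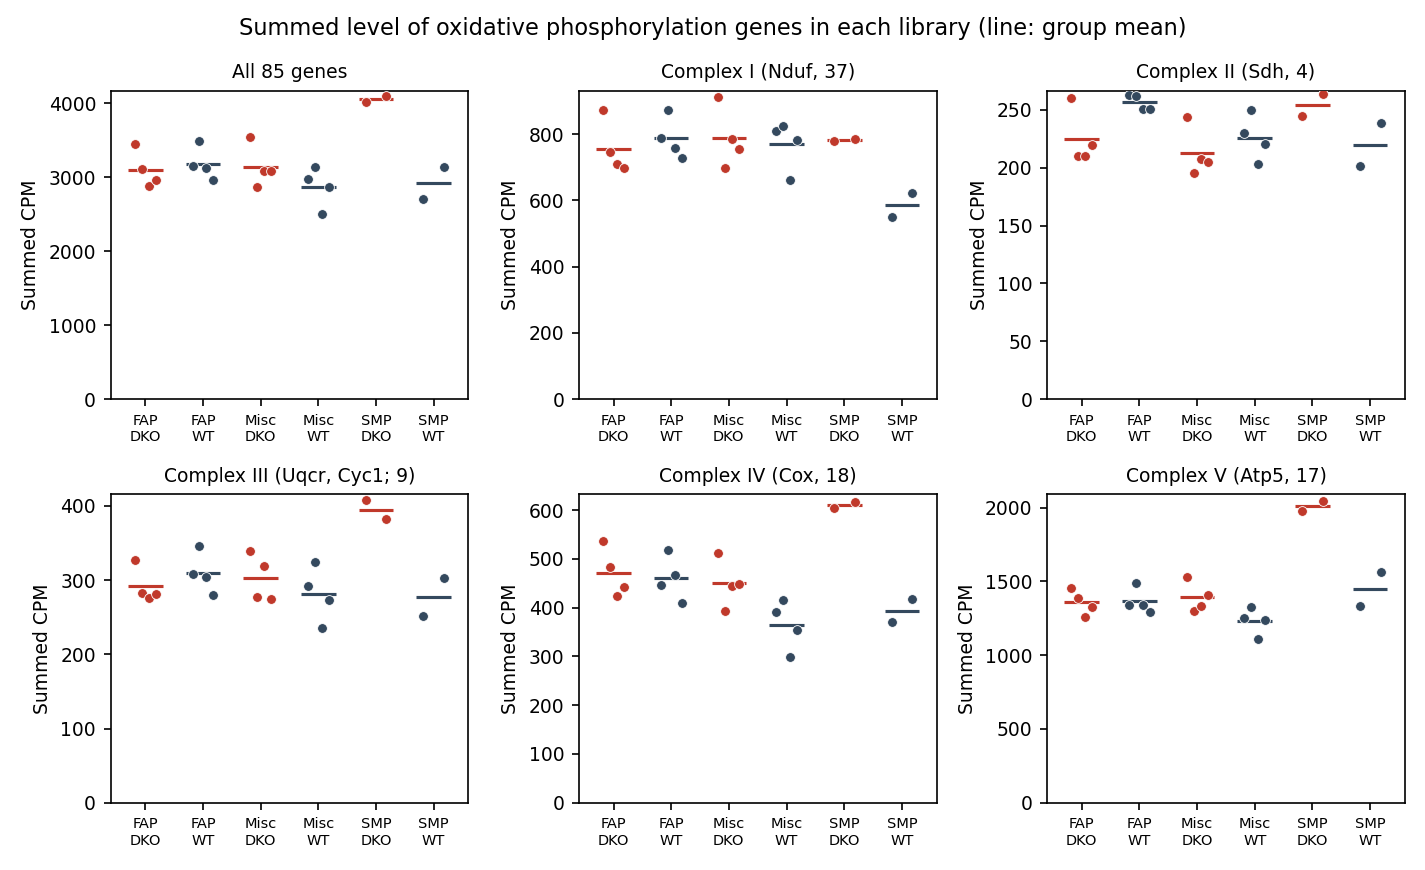
Summed CPM of the genes of each complex (panels; y axis) in every library, with DKO left of WT within each population and a first panel for all 85 genes; points are libraries and lines are group means. The 2 SMP DKO libraries lie above the 2 SMP WT libraries in every complex, while DKO and WT libraries of FAP and of Misc overlap in every complex.

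Complex I feeds in electrons from NADH through a membrane arm and a peripheral arm. Ndufb7, an accessory subunit of the membrane arm (GRCm38, chromosome 8, 83566758 to 83571623), had 12.3 and 14.2 CPM in SMP DKO, against 6.97 and 6.93 CPM in SMP WT. Its log2 fold change was 0.93 ± 0.23 (adjusted p = 0.0055). It stayed below the threshold with each library left out in turn. Ndufc1, a small membrane-arm subunit, stood at 8.04 and 8 CPM in SMP DKO and at 4.05 and 3.42 CPM in SMP WT (1.10 ± 0.38, adjusted p = 0.042), the largest rise among the complex I genes called, but it did not pass without any of the 4 libraries (adjusted p between 0.1 and 0.17). Ndufa13, also known as GRIM-19, rose by 0.85 ± 0.21 (adjusted p = 0.0054), passed at 0.76 without SMP DKO replicate 2 (0.04) but not without SMP WT replicate 1 (0.059), and its exons share sequence with Tssk6 on the opposite strand. The other complex I genes that rose, named after their values were seen, were Ndufb10 (0.50), Ndufs3 (0.59), Ndufa2 (0.71), Ndufb8 (0.74), Ndufa12 (0.80), Ndufs6 (0.82), Ndufb6 (0.88) and Ndufa7 (0.94); apart from the core subunit Ndufs3 all are accessory subunits. Without SMP DKO replicate 2, Ndufa7 and Ndufa12 still passed (adjusted p = 0.046 and 0.035) and the other 6 did not, Ndufa2 standing at 0.29 (0.53). Core subunits that carry iron-sulphur centres and the flavin did not pass: Ndufs1 had a log2 fold change of 0.25 (adjusted p = 0.2) and Ndufv1 of 0.37 (0.11).

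Complex II also belongs to the citrate cycle. Its catalytic flavoprotein Sdha stood at 127 and 145 CPM in SMP DKO and 134 and 149 CPM in SMP WT, with a log2 fold change of −0.06 ± 0.12 (adjusted p = 0.76). Sdhb, the iron-sulphur subunit bound to Sdha, stood at 36.5 and 41.5 CPM in SMP DKO and 23.8 and 29.2 CPM in SMP WT (0.56 ± 0.16, adjusted p = 0.015). The libraries of Sdha overlapped between DKO and WT and those of Sdhb did not. Sdhb did not pass without SMP DKO replicate 2 (adjusted p = 0.11) or without SMP WT replicate 1 (0.16). Sdhd, a membrane anchor of the complex named after its value was seen, was the other complex II gene that rose, by 0.76 (adjusted p = 0.062 without SMP DKO replicate 2).

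The largest rise among the genes that passed was in complex III. Uqcrq, a small subunit of the complex (GRCm38, chromosome 11, 53427922 to 53430831), held 15.7 and 11.3 CPM in SMP DKO, against 4.86 and 5.79 CPM in SMP WT (1.34 ± 0.31, adjusted p = 0.0037). Cyc1, the cytochrome c1 subunit that hands electrons to cytochrome c (chromosome 15, 76343513 to 76346260), held 57.6 and 42.1 CPM in SMP DKO and 26.7 and 27.8 CPM in SMP WT (0.87 ± 0.16, adjusted p = 0.00069). Both passed with each library left out in turn. Uqcr10, another small subunit, held 17.4 and 14.4 CPM in SMP DKO and 6.08 and 9.12 CPM in SMP WT (1.07 ± 0.27, adjusted p = 0.0076). Without SMP DKO replicate 1 or SMP WT replicate 1 its adjusted p was 0.05 and 0.1. Uqcr11, likewise a small subunit, had 12.4 and 11.3 CPM in SMP DKO and 6.08 and 6.14 CPM in SMP WT (0.95 ± 0.27, adjusted p = 0.014); it passed without SMP DKO replicate 2 (0.034) and not without any other SMP library (0.059 to 0.068). The core subunit Uqcrc1 rose by 0.51 ± 0.15 (adjusted p = 0.018), though not without SMP DKO replicate 2 (0.32) or SMP WT replicate 1 (0.14). The Rieske iron-sulphur protein Uqcrfs1 had a value of 0.50 ± 0.20 and did not pass (adjusted p = 0.077). Its value was 0.16 without SMP WT replicate 1 and 0.31 without SMP DKO replicate 1, and it passed at 0.91 without SMP WT replicate 2 (0.0074) and at 0.67 without SMP DKO replicate 2 (just under the threshold, 0.05 when rounded).

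In complex IV the 6 of 15 genes that rose included none of the contractile muscle isoforms. Cox5a, a structural subunit on the matrix side (GRCm38, chromosome 9, 57517328 to 57532427), stood at 33.1 and 39.4 CPM in SMP DKO, against 19.9 and 17.4 CPM in SMP WT (0.96 ± 0.17, adjusted p = 0.00039). Cox4i1 (chromosome 8, 120668225 to 120674209) stood at 146 and 133 CPM in SMP DKO and 77.6 and 91.4 CPM in SMP WT (0.72 ± 0.13, adjusted p = 0.00056). Both passed with each library left out in turn. Cox8a, Cox6b1, Cox6a1 and Cox7a2l rose by 0.72 ± 0.20, 0.79 ± 0.20, 0.50 ± 0.13 and 0.46 ± 0.13 (adjusted p = 0.014, 0.0076, 0.0078 and 0.015), and each of these 4 failed to pass without SMP WT replicate 1 (adjusted p between 0.054 and 0.2). Without SMP DKO replicate 2, Cox6a1 and Cox8a did not pass either (0.094 and 0.075), nor did Cox7a2l without SMP DKO replicate 1 (0.057). The broadly expressed Cox7a2 (0.37, adjusted p = 0.29) and Cox7b (0.57, 0.065) did not pass. The isoforms of contractile muscle gave no call: Cox7a1 stood at 1.71 and 1.78 CPM in SMP DKO and 1.46 and 2.02 CPM in SMP WT, and Cox8b had a log2 fold change of 1.86 with a standard error of 1.25 (0.04 without SMP DKO replicate 2 and 5.34 without SMP WT replicate 2). Cox6a2, below the filter, was at 0.132 and 3.56 CPM in SMP DKO and at 0 in both SMP WT libraries, so replicate 2, the library with the higher fibre marker sum, held nearly all of it; the part of fibre RNA in the rise of the other genes was not tested. Ndufa4, now held to be a complex IV subunit and counted here with complex I by its name, had a value of 0.91 ± 0.33 (adjusted p = 0.053). It was called with DESeq2 size factors (0.047), by DESeq2's Wald test (0.024) and with replicate number as a block (0.034), and not with any SMP library left out (0.096 to 0.23).

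In complex V the strongest call of the set was Atp5g1, which encodes the c subunit of the rotor ring (GRCm38, chromosome 11, 96072793 to 96075694). It stood at 36.1 and 41.6 CPM in SMP DKO, against 19.4 and 20 CPM in SMP WT (0.98 ± 0.14, adjusted p = 5.6e-05). Atp5g2, a second gene for the same mature protein, stood at 88.6 and 89.8 CPM in SMP DKO and 53.7 and 68.3 CPM in SMP WT (0.55 ± 0.15, adjusted p = 0.013), and did not pass without SMP DKO replicate 2 (0.053) or SMP WT replicate 1 (0.16). The DKO libraries lay above the WT libraries for both genes. Atp5b held 760 and 813 CPM in SMP DKO and 512 and 609 CPM in SMP WT (0.49 ± 0.12, adjusted p = 0.0063), and did not pass without SMP WT replicate 1 (0.1). Its partner Atp5a1 held 452 and 463 CPM in SMP DKO and 348 and 387 CPM in SMP WT, without overlap, and its value of 0.32 ± 0.13 missed the threshold (adjusted p = 0.073), although DESeq2 called it (0.014). The remaining complex V genes that rose, also named after their values were seen, were Atp5d (0.47), Atp5f1 (0.53), Atp5j2 (0.69), Atp5g3 (0.74) and Atp5o (0.82). Without SMP DKO replicate 2, Atp5d and Atp5j2 did not pass (adjusted p = 0.098 and 0.06). Across all complexes only Ndufv3 (−0.24), Cox6b2 (−0.24), Sdha (−0.06) and Atp5s (−0.02) had values that were not above 0, and none of these 4 passed. Among the 33 called genes, 7 passed with each SMP library left out in turn: Atp5g1, Cox4i1, Cox5a, Uqcrq, Cyc1, Ndufb7 and Atp5l, the last the gene of ATP synthase subunit g, named after its value was seen.

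**Figure D2:**
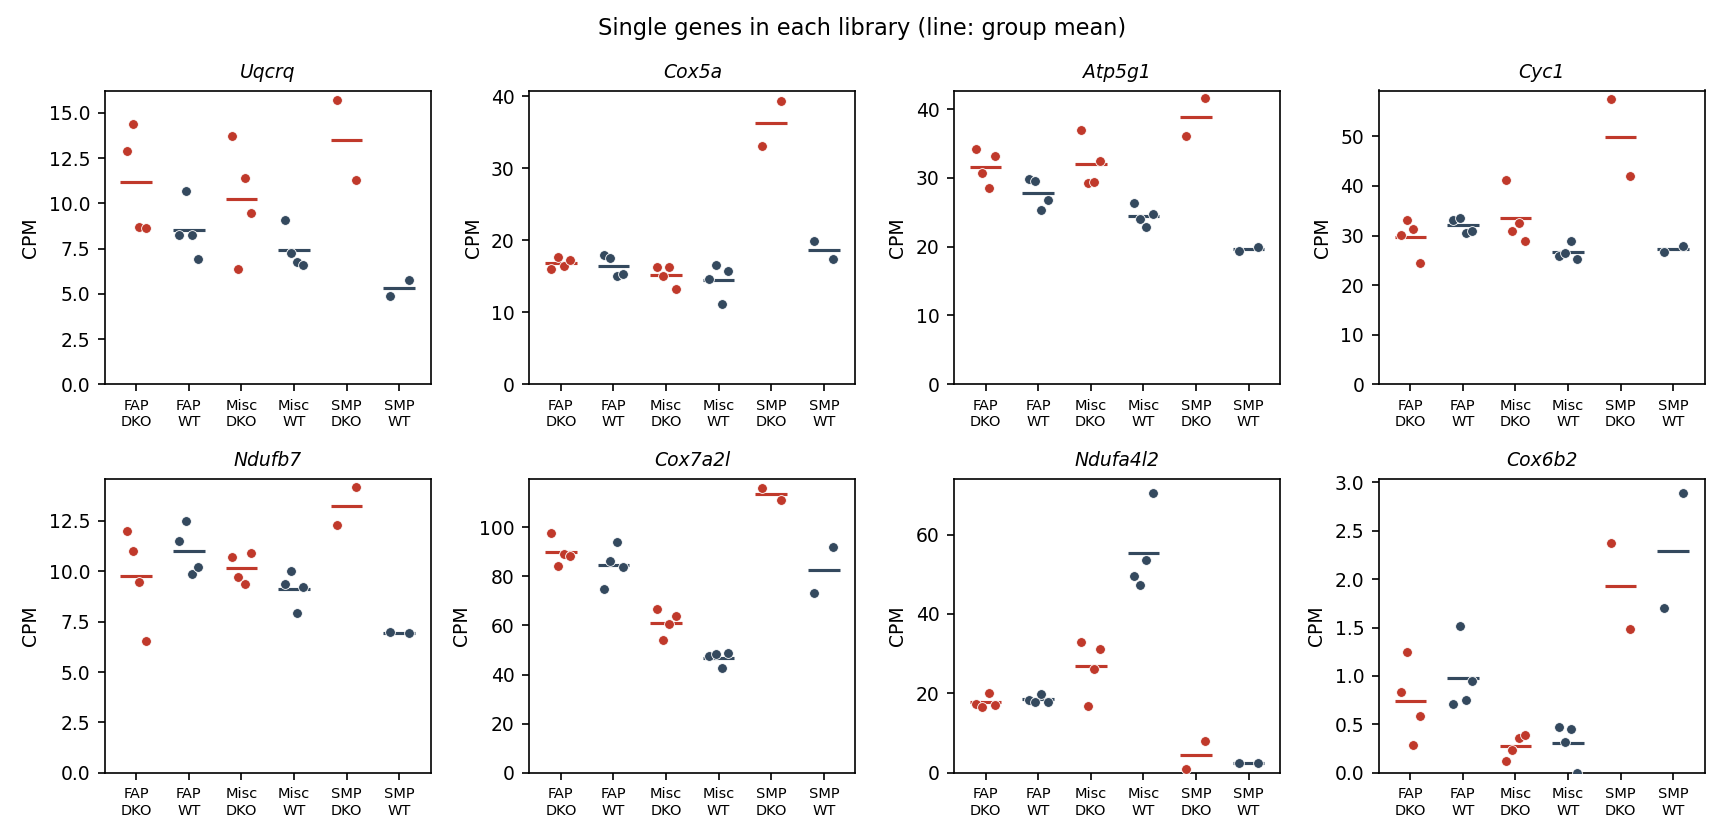
CPM (y axis) of selected genes in every library, with DKO left of WT in each population; points are libraries and lines are group means. In SMP, Uqcrq lies at 15.7 and 11.3 CPM in DKO and 4.86 and 5.79 CPM in WT, and in Misc, Ndufa4l2 lies at 16.9 to 33 CPM in DKO and 47.2 to 70.5 CPM in WT.

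Exon length, taken over all of a gene's exons, moved with the fold change in SMP. Across all 13666 tested genes with a known exon length, the Spearman correlation of the SMP fold change with length was −0.24, and across the 81 genes it was −0.31; genes are not independent replicates. The median exon length was 983 bases over the 81 tested genes of the set and 3390.5 over all tested genes with a known length. Among the 470 other genes under 1000 bases, the median log2 fold change was 0.38 and 23.8% rose, while the 41 oxidative phosphorylation genes of that length had a median of 0.59 and 17 of them rose. Between 1000 and 2000 bases, the 2424 other genes had a median of 0.22 with 18.2% rising, and the 30 genes of the set had 0.52 with 14 rising. When the trend with length was removed before the test, 11 of the 81 genes rose and 0 fell, against 11.4% rising and 8.72% falling among all genes. The share that rose was thus near that of all genes. The median over the 81 was 0.25, and 59 of them had a value above 0. The 11 were Atp5b, Atp5f1, Atp5g1, Atp5g3, Atp5o, Cox5a, Cyc1, Ndufa13, Ndufb8, Sdhd and Uqcrq, some of them named after their values were seen. Atp5g1 entered with an exon length of 4912 bases, longer than its annotated gene span (96072793 to 96075694). Whether its call withstands the correction is therefore uncertain. Cox4i1, Ndufb7 and Atp5l, which kept their calls with each SMP library left out, lost them with the length trend removed. Cox6a1 had a value of −0.01 in the fit with the length trend removed, against 0.50 before it.

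**Figure D3:**
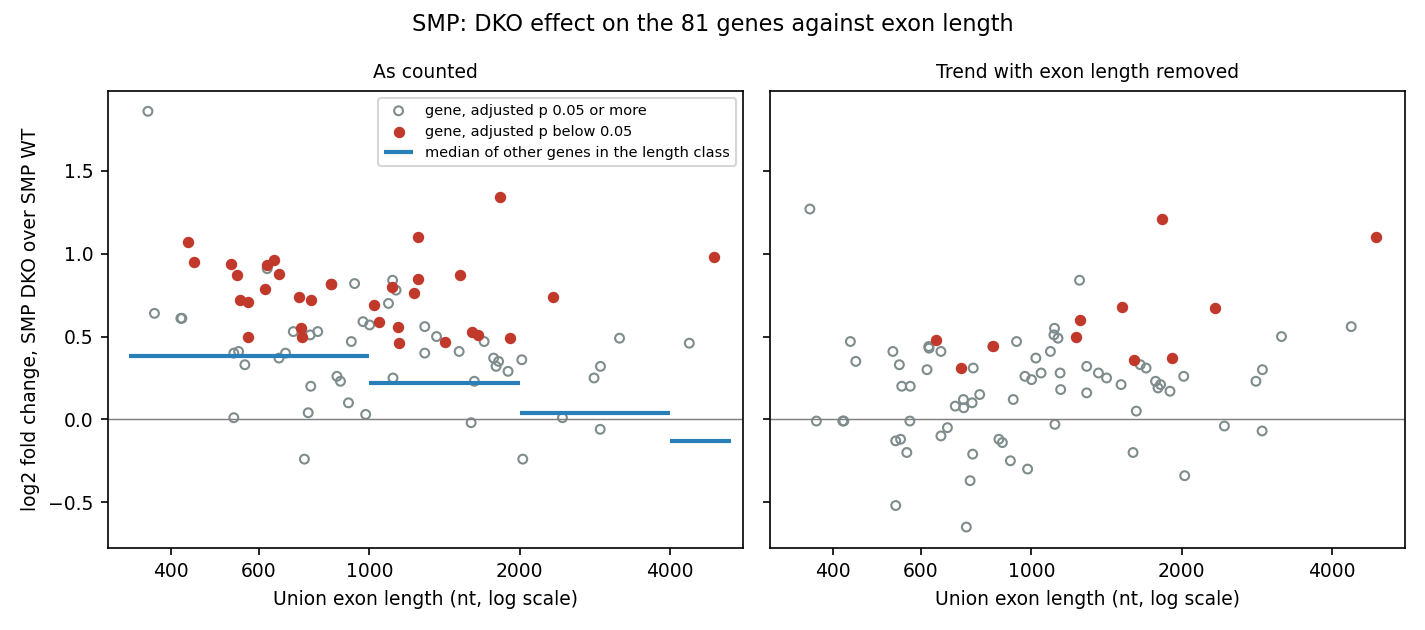
Log2 fold change of SMP DKO over SMP WT (y axis) against union exon length in bases (x axis, log scale) for the 81 genes, before (left) and after (right) the trend with length was removed; points are genes, filled where the adjusted p is below 0.05, and blue lines are medians of the other tested genes in each length class. The number of filled points is 33 on the left and 11 on the right, and the medians of other genes run from 0.38 under 1000 bases to −0.13 at 4000 bases or more.

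NRF1 is a transcription factor with known sites at many nuclear genes of the respiratory chain, and its motif is palindromic. The promoters shown are those of named genes that rose in SMP and hold a match before the start. They were thus picked for the motif and say nothing about how common it is. Of the 29 genes with a window that rose in SMP, 10 held the letters. Matches to the letters GCGCANGCG on either strand are in capitals, the windows run 5′ to 3′ on the gene's strand from 250 bases before to 10 after the annotated start, and the sequences are from RefSeq (GRCm38.p6). The windows are chr10:80406812-80407071 for Uqcr11, chr5:115348949-115349208 for Cox6a1 and chr15:102671038-102671297 for Atp5g2, all on the minus strand.
Uqcr11: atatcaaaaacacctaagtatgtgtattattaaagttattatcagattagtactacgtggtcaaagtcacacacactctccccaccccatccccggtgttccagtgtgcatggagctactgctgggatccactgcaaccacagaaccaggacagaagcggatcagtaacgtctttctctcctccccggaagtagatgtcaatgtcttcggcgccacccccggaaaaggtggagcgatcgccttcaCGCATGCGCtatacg
Cox6a1: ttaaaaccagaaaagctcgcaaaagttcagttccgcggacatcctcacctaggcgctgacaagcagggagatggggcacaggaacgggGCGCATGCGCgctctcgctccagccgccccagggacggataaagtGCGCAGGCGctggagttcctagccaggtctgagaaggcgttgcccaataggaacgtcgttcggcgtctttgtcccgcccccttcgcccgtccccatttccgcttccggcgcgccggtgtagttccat
Atp5g2: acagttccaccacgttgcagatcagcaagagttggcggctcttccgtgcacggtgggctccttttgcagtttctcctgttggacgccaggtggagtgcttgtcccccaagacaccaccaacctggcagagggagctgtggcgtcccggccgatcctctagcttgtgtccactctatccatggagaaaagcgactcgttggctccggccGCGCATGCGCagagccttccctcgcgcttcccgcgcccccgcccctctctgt
The first match begins 5 bases before the start in Uqcr11, 162 before in Cox6a1 and 42 before in Atp5g2; in Cox6a1 and Atp5g2 overlapping matches on both strands span 10 letters, and Cox6a1 holds a further match.

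Motifs were counted in windows of 250 bases before to 50 after the start, which were at hand for 69 of the 85 genes and for 27025 genes in all. The NRF1 letters were found for 20 of the 69 (29%), against 7.03% of all genes. For GABPA (CCGGAAG) the shares were 23.2% of the 69 and 9.93% of all genes, for YY1 (AAGATGGC) 15.9% and 3.19%, and for the estrogen-related receptors (TNAAGGTCA) 4.35% and 1.43%, on either strand in each case. Median GC content was 57.3% over the windows of the set and 52.7% over all windows. Of the 29 genes with a window that rose in SMP, 10 held the NRF1 letters (34.5%), against 9 of the 38 other tested genes with a window (23.7%); for GABPA the shares were 34.5% and 15.8%. Such a match is only a run of letters, and binding was not measured.

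In Misc most of the genes called belonged to complex IV. Of the 81 genes, 6 rose and 1 fell, against a background of 9.15% rising and 9.55% falling, with a median of 0.11 (0.01 over all genes tested) and 57 values above 0. Complex IV held 4 of the 6 (of 15 tested), complex I 1 of 36 and complex V 1 of 17. The summed level of complex IV was 1.23 times and that of complex V 1.13 times the WT mean in Misc DKO, with overlapping libraries. Without Misc DKO replicate 1, whose total over the set was the highest at 3541 CPM (the others 2867, 3087 and 3090 CPM, and Misc WT 2972, 3143, 2507 and 2868 CPM), 3 genes were called (1 higher and 2 lower) and the median was −0.01. With the length trend removed, 3 rose and 2 fell.

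Cox7a2l, a supercomplex assembly factor related to the subunit 7a isoforms (GRCm38, chromosome 17, 83501917 to 83514333), stood at 66.6, 53.9, 60.5 and 63.8 CPM in Misc DKO, against 47.4, 48.4, 42.5 and 48.9 CPM in Misc WT (0.39 ± 0.10, adjusted p = 0.0056). All DKO libraries lay above all WT libraries, and it passed with each library left out in turn. Cox4i1 stood at 109, 89.4, 92.5 and 93.2 CPM in Misc DKO and 77.5, 76, 74.5 and 72.3 CPM in Misc WT (0.36 ± 0.09, adjusted p = 0.0098), also without overlap, and Atp5g1 at 37, 29.3, 29.4 and 32.4 CPM in Misc DKO and 26.4, 24.1, 22.9 and 24.7 CPM in Misc WT (0.38 ± 0.10, adjusted p = 0.0094). Without Misc DKO replicate 1 these 2 genes had adjusted p of 0.055 and 0.06. Cox8a rose by 0.55 ± 0.14 (adjusted p = 0.009), Ndufb11 by 0.32 ± 0.11 (0.039) and Cox6a1 by 0.27 ± 0.09 (0.043). Cox8a did not pass without Misc DKO replicate 1 or 4 (0.052 each), and Ndufb11 and Cox6a1 did not pass in 6 and 7 of the 8 fits with a library left out.

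Ndufa4l2 was the sole gene of the set that fell in Misc. It is a paralogue of Ndufa4 known as a target of hypoxia-inducible factor that lowers mitochondrial respiration (GRCm38, chromosome 10, 127509274 to 127517154). It stood at 33, 16.9, 26.2 and 31.2 CPM in Misc DKO, against 49.5, 47.2, 53.7 and 70.5 CPM in Misc WT, without overlap (−1.04 ± 0.26, adjusted p = 0.0084), and passed with each library left out in turn. Per length, its share of the summed Ndufa4 and Ndufa4l2 level was 49.7% ± 6.67 in Misc DKO and 66.8% ± 9.04 in Misc WT (SD, n = 4 each). Ndufa4 itself had a log2 fold change of −0.05 (adjusted p = 0.9). The exons of Ndufa4l2 share sequence with Shmt2 on the opposite strand, and no source used here gives whether counting used strand. Satellite cell markers summed to 1250 to 1550 CPM in Misc DKO and 606 to 677 CPM in Misc WT, fibre markers to 48.2 to 86.4 CPM in Misc DKO and 28.8 to 36.2 CPM in Misc WT, and FAP markers to 14800 to 16600 CPM in Misc DKO and 20700 to 21600 CPM in Misc WT. Ndufa4l2 is also known to be high in pericytes. Pericyte and smooth muscle markers summed to 73.2 to 132 CPM in Misc DKO and 154 to 194 CPM in Misc WT. Endothelial markers summed to 44 to 66.5 CPM in Misc DKO and 84.8 to 117 CPM in Misc WT. Both sums were without overlap and lower in DKO like Ndufa4l2. In FAP the pericyte sum was 58.8 to 124 CPM in DKO and 115 to 196 CPM in WT. The FAP endothelial sum was 141 to 229 CPM in DKO and 300 to 370 CPM in WT. Ndufa4l2 had a log2 fold change of −0.06 in FAP. In SMP WT the pericyte sum was 717 to 761 CPM, with Ndufa4l2 at 2.51 and 2.37 CPM. The part of these cell types in the Misc values was not tested.

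In FAP no gene of the set passed. By edgeR 0 of 81 rose and 0 fell, against a background of 5.58% rising and 5.14% falling; 7 had an unadjusted p below 0.05 (2 higher and 5 lower, 8.64% of the 81 against 24.9% of all genes), and DESeq2 called 1. The median was −0.05 (−0.01 over all genes tested), 25 values were above 0, and the summed level was 3449, 3112, 2877 and 2968 CPM in FAP DKO and 3149, 3486, 3122 and 2961 CPM in FAP WT. Complex II had the lowest median, −0.14. Sdha was the gene that DESeq2 called (adjusted p = 0.027): its FAP DKO libraries had 128, 109, 111 and 116 CPM and its FAP WT libraries 144, 135, 135 and 135 CPM, without overlap, with an edgeR value of −0.24 ± 0.08 (adjusted p = 0.066, and 0.033 without FAP DKO replicate 1). Uqcrc1 had −0.25 ± 0.11 (adjusted p = 0.13) and Cox8a 0.33 ± 0.14 (0.16). The values furthest from 0 were those of the low isoforms Cox7a1 (−1.01 ± 0.49, adjusted p = 0.2) and Cox4i2 (0.96 ± 0.65, 0.38).

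**Figure D4:**
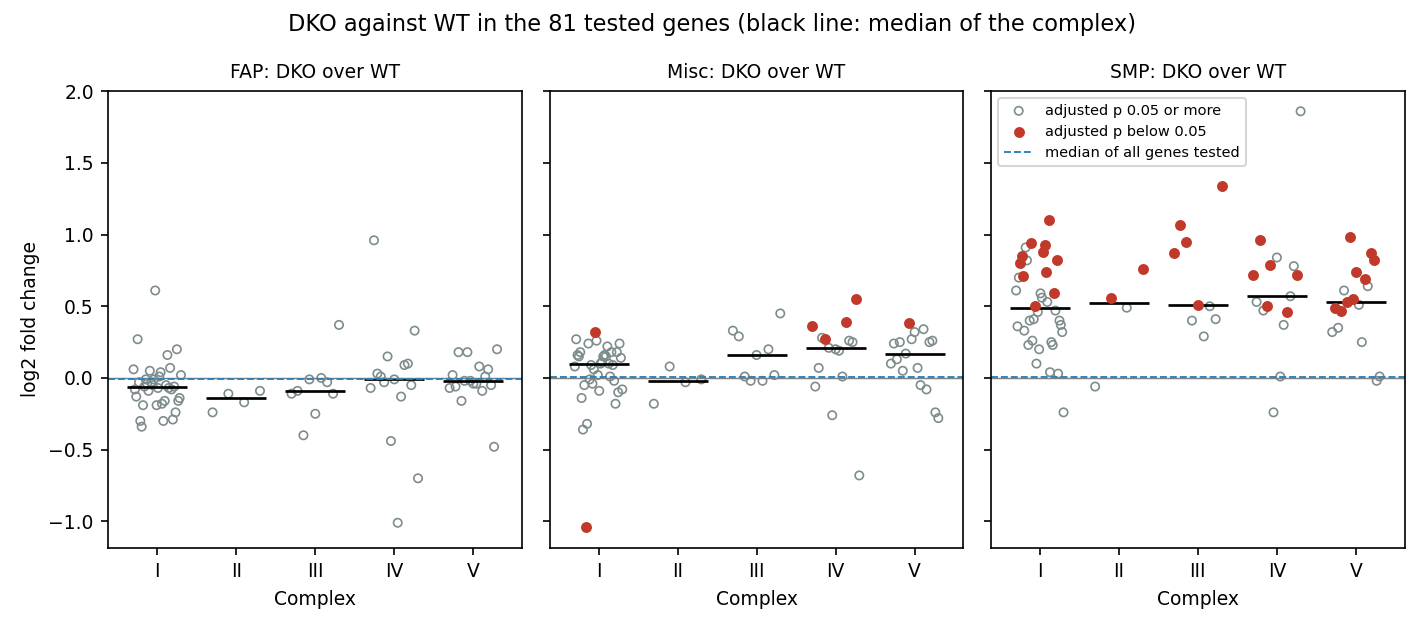
Log2 fold change of DKO over WT (y axis) of each tested gene by complex (x axis) in FAP, Misc and SMP; points are genes, filled where the adjusted p is below 0.05, black lines are medians of a complex and the dashed line is the median of all genes tested. In SMP 77 of 81 genes lie above 0, in Misc 57 and in FAP 25.

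The DKO effect itself was compared between populations by an interaction term. In FAP minus SMP, 21 of the 81 genes were below 0 and 0 above at the threshold, against a background of 5.42% below and 4.92% above, with a median difference of −0.55 (−0.01 over all genes tested). The 21 comprised 6 genes of complex I, 2 of II, 4 of III, 3 of IV and 6 of V. Uqcr11 differed most, by −1.35 ± 0.33 (adjusted p = 0.0099); it stood at 10.1, 9.56, 7.26 and 6.37 CPM in FAP DKO and 13.2, 12.6, 9.77 and 8.19 CPM in FAP WT, overlapping, where its SMP libraries did not overlap. The Uqcr10 difference was −1.16 ± 0.33 (0.026) and the Ndufb7 difference −1.10 ± 0.27 (0.012); Uqcr10 did not pass without FAP DKO replicate 4, FAP WT replicate 2, SMP DKO replicate 1 or SMP WT replicate 1, nor Ndufb7 without SMP DKO replicate 2 (0.057). The number called was 13 without FAP DKO replicate 3, and 12 without FAP DKO replicate 4 or FAP WT replicate 2. Over all genes tested, 662, 546 and 609 were below 0 in these fits in that order, against 768 with all libraries. Fewer genes of the set were also called without SMP DKO replicate 2 or SMP WT replicate 1, where 1 group held a single library. Atp5g1, Cox4i1, Cox5a, Cyc1 and Uqcr11 were called in every fit with a library left out. With the length trend removed 8 genes were below 0 and 0 above, against 5.66% below and 4.29% above among all genes.

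In Misc minus SMP, 2 genes were below 0 and 0 above, against a background of 4.34% below and 4.61% above, with a median of −0.44 (0 over all genes). These were Cox5a (−0.89 ± 0.21, adjusted p = 0.0094) and Atp5g1 (−0.60 ± 0.18, 0.033). Cox5a stood at 16.3, 15, 16.3 and 13.3 CPM in Misc DKO and 14.6, 16.6, 11.1 and 15.8 CPM in Misc WT, overlapping, where the SMP libraries did not. Cox5a did not pass without SMP DKO replicate 2 (0.058) or SMP WT replicate 2 (0.056), and Atp5g1 did not pass in 6 of the 12 fits with a library left out. The count was 8 without Misc DKO replicate 1, 7 without Misc WT replicate 3 and 5 without SMP DKO replicate 1, and 1 without Misc DKO replicate 2 or 3, Misc WT replicate 1, or any of SMP DKO replicate 2 and SMP WT replicates 1 and 2. In Misc minus FAP, edgeR called 0 genes above and 0 below, against a background of 1.42% above and 1.37% below; 11 had an unadjusted p below 0.05 (10 above and 1 below), and the median was 0.17 (0.01 over all genes). Same-numbered FAP and Misc libraries deviated together within a genotype, and with that pairing as a block 3 genes were called, 2 above and 1 below. Over all genes tested, 492 were above and 731 below with the block, against 202 and 194 without it. In the fit without a block, 1 gene of the set was called when FAP DKO replicate 1 was left out.

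The populations were then set against each other within a genotype. FAP WT over SMP WT gave 39 genes higher and 5 lower of 81 (48.1% and 6.17%), against backgrounds of 31.1% and 31.3%, with a median of 0.40 (−0.02 over all genes). FAP DKO over SMP DKO gave 6 higher and 24 lower (7.41% and 29.6%), against 29.2% and 29.6%, with a median of −0.20 (0 over all genes). In DKO the share lower was thus that of all genes, and only the share higher departed from the background. In WT the higher genes were mainly of complex I, 24 of 36, with 1 lower, whereas in DKO complex I gave 6 higher and 4 lower. Complexes III, IV and V in DKO gave 0 higher and 5 of 9, 7 of 15 and 8 of 17 lower. All 6 genes called higher in DKO were among the 39 called higher in WT, which is 100% of the DKO list and 15.4% of the WT list. The WT comparison gave 24 calls without SMP WT replicate 1 and the DKO comparison 18 without SMP DKO replicate 1 and 21 (5 higher and 16 lower) without SMP DKO replicate 2. With the length trend removed, FAP WT over SMP WT gave 16 higher and 22 lower with a median of 0.

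Misc over SMP gave similar splits. Misc WT over SMP WT had 26 higher and 9 lower (32.1% and 11.1%), against 30.6% and 30.0%, with a median of 0.32 (0.03 over all genes). Misc DKO over SMP DKO had 5 higher and 24 lower (6.17% and 29.6%), against 29.8% and 29.7%, with a median of −0.14 (0.03). The share higher in WT and the share lower in DKO were thus near those of all genes. Misc WT held 17 of 36 complex I genes higher and 1 lower, and Misc DKO 5 higher and 5 lower. Without SMP WT replicate 1, 23 genes were called in WT, and in DKO 18 without SMP DKO replicate 1 and 24 (7 higher and 17 lower) without SMP DKO replicate 2. With the length trend removed the WT comparison gave 16 higher and 24 lower with a median of 0.01. The FAP and Misc comparisons with SMP share the same SMP libraries.

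**Figure D5:**
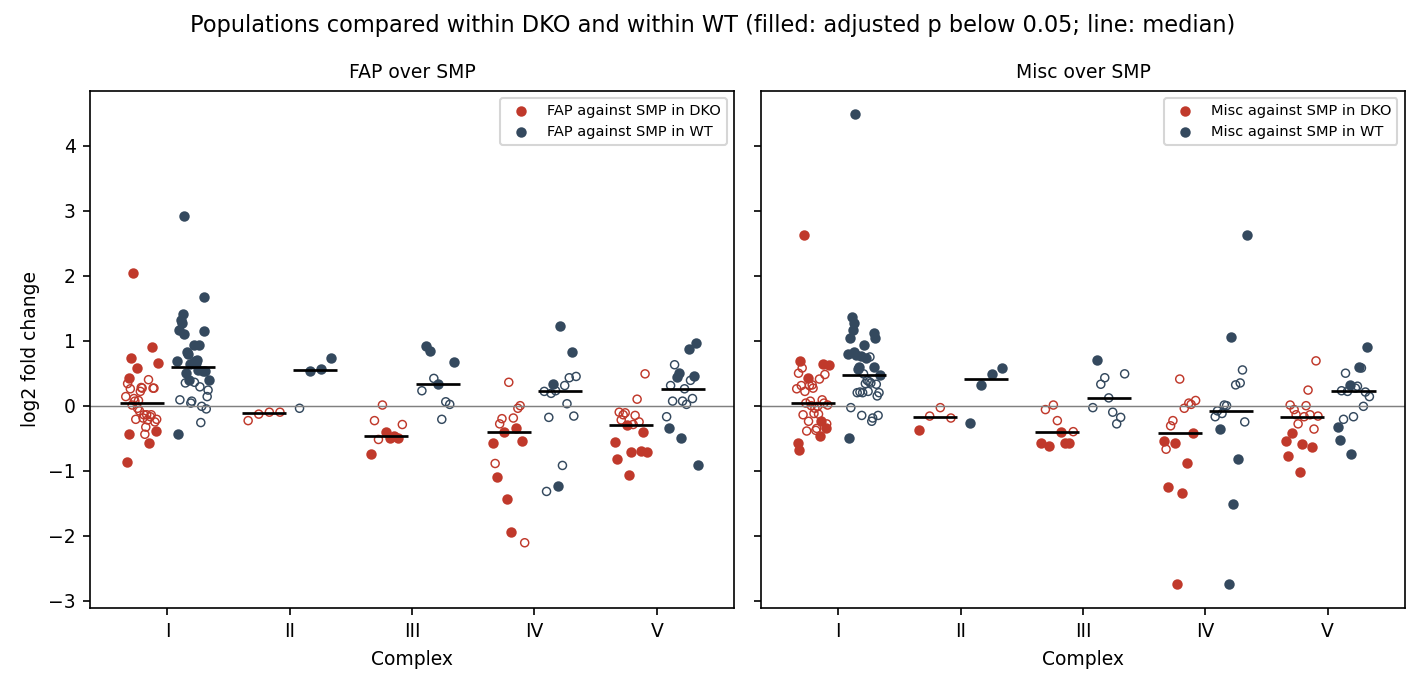
Log2 fold change of FAP and of Misc over SMP (y axis) for each tested gene by complex (x axis), DKO left of WT; points are genes, filled where the adjusted p is below 0.05, and black lines are medians. FAP over SMP gives 6 genes higher and 24 lower in DKO, and 39 higher and 5 lower in WT. Of all genes tested, 29.2% were higher and 29.6% lower in DKO, and 31.1% and 31.3% in WT.

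Several genes held their order of populations in both genotypes. Ndufa4l2 stood at 17.3, 16.5, 20.2 and 17 CPM in FAP DKO and at only 0.922 and 8 CPM in SMP DKO (2.04 ± 0.43, adjusted p = 0.00064), and at 18.4, 17.7, 19.9 and 17.9 CPM in FAP WT, against 2.51 and 2.37 CPM in SMP WT (2.92 ± 0.43, 1.5e-05). In Misc over SMP its fold changes were 2.63 ± 0.43 in DKO (5.2e-05) and 4.49 ± 0.43 in WT (1e-07), the largest of the set. Of the 2 SMP DKO libraries replicate 2 held the higher value, and without replicate 1 the gene was called higher in SMP DKO than in SMP WT (1.72, adjusted p = 0.0029, against 0.33 with all libraries), while without replicate 2 the value was −1.40 (0.13). FAP over SMP in DKO was accordingly 1.17 without SMP DKO replicate 1 and 4.26 without replicate 2, and Misc over SMP 1.75 and 4.85 in the same order. Ndufs4, an accessory complex I subunit whose loss causes Leigh-like disease in mice, stood at 23.9, 16.9, 19 and 18.3 CPM in FAP DKO and 10 and 10.8 CPM in SMP DKO (0.91 ± 0.19, adjusted p = 0.00032). In WT it stood at 22.9, 29.8, 22.5 and 21 CPM in FAP and 8.43 and 6.57 CPM in SMP (1.68 ± 0.19, 6.2e-08). Neither pair of groups overlapped. Ndufa13 was higher in FAP than SMP by 0.43 ± 0.18 in DKO (0.039) and by 1.32 ± 0.18 in WT (9.9e-07); the DKO value did not pass without FAP DKO replicate 1 or 2 or either SMP DKO library (adjusted p between 0.054 and 0.2).

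Further accessory subunits of complex I shared this order. Ndufa8 was higher in FAP than in SMP by 0.58 ± 0.16 in DKO (adjusted p = 0.0039, and 0.082 without SMP DKO replicate 1) and by 0.79 ± 0.16 in WT (0.00014). Ndufa3 was higher by 0.74 ± 0.32 in DKO (0.049) and by 1.41 ± 0.30 in WT (0.00034), and its DKO call was lost without FAP DKO replicate 1 or either SMP DKO library (up to 0.19). In Misc over SMP, Ndufv3, a small subunit of the NADH-oxidising module, was higher by 0.63 ± 0.13 in DKO (0.00029) and 0.47 ± 0.12 in WT (0.0021), with each library left out too. Ndufa10 went the other way: FAP over SMP was −0.87 ± 0.13 in DKO (3.7e-06) and −0.44 ± 0.13 in WT (0.0046), the WT value not passing without SMP WT replicate 2 (0.25). Cox7a1 was lower in Misc than in SMP, by −1.34 ± 0.55 in DKO (0.038, lost in 5 of 6 fits with a library left out) and −1.52 ± 0.50 in WT (0.011, and 0.093 without SMP WT replicate 2).

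The lower genes included Atp5b, with FAP over SMP at −0.82 ± 0.10 in DKO (adjusted p = 3.7e-07) and −0.35 ± 0.10 in WT (0.0054), and Atp5g2, at −1.06 ± 0.13 in DKO (3.1e-07) and −0.49 ± 0.13 in WT (0.0024). The WT values of both did not pass without SMP WT replicate 2 (0.16 and 0.11). Cox6b2, the testis isoform of subunit 6b, stood between 0.29 and 1.25 CPM in FAP DKO and at 2.37 and 1.48 CPM in SMP DKO, and between 0.707 and 1.52 CPM in FAP WT and at 1.7 and 2.89 CPM in SMP WT. No FAP library reached an SMP library of its genotype (−1.43 ± 0.58 in DKO and −1.23 ± 0.51 in WT, adjusted p = 0.036 and 0.039). Those calls were lost in 3 of 6 and 4 of 6 fits with a library left out, with an adjusted p up to 0.29 and 0.3. In Misc over SMP its fold changes were −2.75 ± 0.65 in DKO and −2.74 ± 0.56 in WT. Per length it made up 3.26% of the subunit 6b level in SMP DKO and 6.35% in SMP WT, and at most 2.44% elsewhere (group means).

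Between FAP and Misc few of the genes were called. In DKO 1 gene was higher and 2 lower in FAP, against backgrounds of 16.0% and 13.7%, with a median of −0.05; in WT 8 were higher and 3 lower, against 19.3% and 17.6%, with a median of 0.17. With replicate number paired within genotype as a block, the counts were 1 higher and 5 lower in DKO and 21 higher and 5 lower in WT. The block raised the counts over all genes tested as well. In WT 3352 of them were higher and 3206 lower with it, against 2740 and 2489 without it. In DKO 3019 were higher and 2483 lower with it, against 2269 and 1944 without it. In the fit without a block, the DKO count for the set was 1 without FAP DKO replicate 2 or 4 or Misc DKO replicate 4. The WT count was 7 without Misc WT replicate 2 or 4. With the length trend removed the counts were 1 higher and 4 lower in DKO and 5 higher and 8 lower in WT. Cox7a2l separated the 2 populations in both genotypes. It stood at 97.6, 84.3, 89.3 and 88.2 CPM in FAP DKO, above each of the Misc DKO values already given (0.55 ± 0.09, adjusted p = 5.4e-05), and at 74.7, 86.2, 94.2 and 84 CPM in FAP WT (0.86 ± 0.09 over Misc WT, 6.7e-08), with no overlap. In SMP it stood at 116 and 111 CPM in DKO and 73.4 and 92.1 CPM in WT, and Misc was lower than SMP by −0.89 ± 0.11 in DKO and −0.82 ± 0.11 in WT. Per length, it made up 67.9% of the summed subunit 7a family in FAP DKO and 64.2% in FAP WT, 56.1% in Misc DKO and 50.4% in Misc WT, and 68.9% in SMP DKO and 66.9% in SMP WT (group means). Atp5sl, whose RefSeq name is Dmac2 and which is a complex I assembly factor and not an ATP synthase subunit, was lower in FAP than in Misc by −0.56 ± 0.19 in DKO (0.03, lost in 5 of 8 fits with a library left out) and −1.05 ± 0.19 in WT (6.8e-05).

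The ubiquitous isoforms of complex IV were the main ones in every group. Over single libraries, Cox4i1 made up between 98.8 and 99.9% of the subunit 4 level per length, Cox8a between 94.9 and 100% of subunit 8, and Cox6a1 at least 95.3% of subunit 6a. Cox7a1, the contractile muscle isoform, made up between 0.324 and 3.21% of the subunit 7a family. Of the 3 genes for the c subunit, Atp5g1 made up 2.17 to 4.74%, Atp5g2 37.1 to 50.1% and Atp5g3 47.2 to 58.7% per length. The exon lengths used were 4912, 731 and 724 bases in that order. That of Atp5g1 is longer than its annotated gene span (96072793 to 96075694), so these shares are uncertain. Before division by length, SMP DKO libraries held 36.1 and 41.6 CPM of Atp5g1, 88.6 and 89.8 CPM of Atp5g2, and 97.4 and 94.5 CPM of Atp5g3.

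Genes of neighbouring pathways were read for the same contrasts, against the same backgrounds. In SMP, glycolysis had 11 of 18 tested genes higher and 1 lower, with a median of 0.69, among them the hexokinase Hk2 (1.4), the muscle enolase Eno3 (1.28), the phosphofructokinase Pfkp (1.16) and Pgk1 (0.81); Ldhb fell by 0.70, a gene named after its value was seen. Mitochondrial ribosomal proteins had 9 of 57 higher and 0 lower (median 0.31), led by Mrpl19 (1.11), Mrps21 (0.93), Mrpl12 (0.92) and Mrpl20 (0.89). Antioxidant and carrier genes had 9 of 15 higher and 0 lower (median 0.43), among them glutathione peroxidase Gpx1 (1.02) and the ADP/ATP carrier Slc25a5 (0.84). The citrate cycle, which supplies NADH and succinate to the chain, had 2 of 17 higher (Idh3a, 0.75, and Mdh2, 0.62) and 1 lower (Suclg2, −0.42), with a median of 0.11.

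These counts moved with single libraries. Glycolysis had 6 higher and 2 lower without SMP DKO replicate 2, and Eno3 did not pass there (0.51, adjusted p = 0.23). Mitochondrial ribosomal proteins had 3 higher without SMP WT replicate 1, 5 without SMP DKO replicate 1 and 6 without SMP DKO replicate 2. Antioxidant and carrier genes had 4 higher without SMP WT replicate 1, 5 without SMP DKO replicate 2 and 6 without SMP WT replicate 2. The citrate cycle had 2 higher and 0 lower with any of the 4 left out. SMP DKO replicate 2 is the library with 566 CPM over fibre markers and 312 CPM over immune markers, against 184 and 27.7 CPM in SMP DKO replicate 1 and at most 52.1 and 24.5 CPM in SMP WT, and the part of such RNA in these lists was not tested.

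Few of the factors that assemble the complexes were called in SMP. Assembly factors of complex I had 0 of 16 higher and 1 lower (Tmem126b, −0.91), those of complex II 0 of 4 either way, those of complex III 1 of 6 higher (Uqcc2, 1.71), those of complex IV 1 of 23 higher (Cox14, 0.91), and those of ATP synthase 1 of 5 higher (the inhibitor Atpif1, 0.78) and 1 lower (Atpaf1, −1.29). Regulators of mitochondrial biogenesis had 2 of 21 higher and 2 lower with a median of 0.20: Pprc1 (0.63) and the mitochondrial transcription factor Tfb2m (0.62) rose, and the nuclear receptor Esrrg (−2.59) and the deacetylase Sirt1 (−0.48) fell. Of 7 other chain genes outside the name rule, cytochrome c (Cycs, 0.60) and 2010107E04Rik (0.97) rose, and 1 gene did without SMP DKO replicate 2, SMP WT replicate 1 or SMP WT replicate 2. Most of these small counts also moved with a library left out. Complex I assembly had 1 higher and 0 lower without SMP DKO replicate 2 or either SMP WT library, and Cox14 did not pass without SMP DKO replicate 2 (adjusted p = 0.11) or SMP WT replicate 1 (0.13). Atpif1 did not pass with any of the 4 left out (0.065 to 0.23), and the biogenesis regulators had 1 higher and 1 lower without SMP DKO replicate 1 or either SMP WT library and 3 higher and 1 lower without SMP DKO replicate 2.

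In Misc, glycolysis had 4 higher and 2 lower, with Aldoc at −2.50 and Pfkp at 0.64, the citrate cycle 3 higher and 1 lower (Suclg2, −0.70), and antioxidant and carrier genes 2 higher (Ucp2, 1.14, and Slc25a5, 0.60) and 0 lower. Cycs rose by 0.41 in Misc, and Esrrg fell there by 1.12. In FAP, glycolysis had 3 higher and 0 lower (the glucose transporter Slc2a1, 0.62, Ldha, 0.41, and Pgk1, 0.35), Suclg2 fell by 0.49, the electron transfer flavoprotein Etfa fell by 0.33, Slc25a5 rose by 0.39 and catalase (Cat) fell by 0.33. The Misc citrate cycle count was 0 higher and 2 lower without Misc DKO replicate 1 and 1 higher and 1 lower without Misc DKO replicate 4 or Misc WT replicate 2 or 3, and glycolysis had 1 higher and 2 lower without Misc DKO replicate 4. In FAP, neither antioxidant and carrier gene nor Etfa passed without FAP DKO replicate 2, and 1 antioxidant or carrier gene was called without FAP DKO replicate 3 or 4 or FAP WT replicate 1, 2 or 4.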

How the data were processed

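RNA-seq of 20 libraries was read from 1 deposited table of raw exon counts per gene. Per the labels' design text, reads from an Illumina HiSeq were mapped with OSA to mm10 with RefSeq annotation before the authors summed counts; per the submitters' processing notes DESeq2 was used, version not given. No source used here names the counting program or its use of strand, and 23 of the 85 genes share exonic sequence with another gene (19 only on the opposite strand); reads shared with pseudogene copies are uncertain too. Gene symbols damaged by a spreadsheet or missing were restored for 52 IDs, and 24312 IDs matched RefSeq.

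Genes were kept with edgeR's filter (10 counts in a library of median depth, at least 2 libraries, 15 counts in all). Counts were scaled by TMM and tested with glmQLFit and glmQLFTest in edgeR 4.0.16 (R 4.3.3, limma 3.58.1) in a fit of all 6 groups without a block, with Benjamini-Hochberg adjustment over 14179 genes. Depth was 5826000 to 17730111 counts per library. CPM values (counts in 1000000) were computed from TMM-adjusted library totals. RPKM values were also taken per kilobase of exon, as the union of a gene's exons in the mouse GENCODE basic annotation. DESeq2 1.42.0, other scalings, no filter, thinned counts, the compared groups alone, a length correction (lowess, span 0.3), a replicate block and leaving out each library were alternatives.

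FAP and Misc libraries with the same number deviated together within a genotype (over 4 pairs each, the same-number correlations of deviations were 0.18 to 0.34 for DKO, and for WT 0.18 to 0.23), so blocked values stand beside those comparisons. The script was tested on simulated data: of 100 genes changed 1.5-fold and 100 changed 2-fold, 47% and 79% were recovered in FAP, 43% and 82% in Misc, and 10% and 56% in SMP, among 13705, 13706 and 13713 genes simulated. The genes and gene lists were chosen with earlier results of these data known. Individually described genes are isoform pairs and catalytic or core subunits, listed by role, plus the called genes with the largest fold changes: up to 5 each way for DKO against WT, up to 5 each way called in both genotypes for a pair of populations, up to 3 each way for an interaction and up to 4 of each pathway list; exceptions are marked, and 1 gene under this rule is not reported here.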

Additional observations from a re-analysis of the deposited data

Results flagged for a closer look

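In 7 of 156 groups of 4 libraries, 1 library lay far from the other 3 by Dixon's test, which chance alone gives in about 1 of 20 groups. Cox4i1 was at 89.1 CPM in FAP WT replicate 4, below the 100 to 102 CPM of the others. Ndufa4 was at 28.8 CPM and Ndufa3, an accessory subunit of complex I, at 15.1 CPM in FAP DKO replicate 1, against at most 17.5 and 9 CPM in the other FAP DKO libraries. Sdha was at 144 CPM in FAP WT replicate 1, where the others were at 135 CPM, and at 128 CPM in Misc WT replicate 2, where the others lay between 114 and 116 CPM. Atp5a1 was low at 314 CPM in FAP WT replicate 3, and Ndufa10 high at 36.2 CPM in Misc DKO replicate 3.

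The DKO effect differed between FAP and SMP for 21 genes by edgeR's interaction term, with log2 differences (FAP minus SMP) of −1.35 for Uqcr11, −1.16 for Uqcr10 and −1.10 for Ndufb7. Between Misc and SMP it differed for 2 genes, Cox5a (−0.89) and Atp5g1 (−0.60). The FAP and Misc differences share the SMP libraries.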

How the results depend on the processing

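Counts of oxidative phosphorylation genes called depended on single SMP libraries and on the length correction; causes of these changes were not tested. DKO against WT in SMP gave 33 calls, 11 with SMP libraries fitted alone, 11 with the length trend removed, 16 at an adjusted p below 0.01, and 7 to 29 with a library left out. In Misc the 7 calls ranged from 3 to 8 with a library left out. In FAP the count of 0 became 1 by DESeq2, with the compared groups alone and with the length trend removed, and was 0 to 1 with a library left out. FAP minus SMP (21 calls) gave 8 with the length trend removed, 5 at 0.01 and 6 to 25 with a library left out. Misc minus SMP (2) gave 5 by DESeq2, 1 with upper-quartile scaling, with the compared groups alone, with the length trend removed and at 0.01, and 1 to 8 with a library left out. Misc minus FAP (0) gave 1 with the compared groups alone and 0 to 1 with a library left out.

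Between populations, FAP DKO over Misc DKO (3) gave 1 without the filter, with thinned counts and at 0.01, 5 with the length trend removed, and 1 to 4 with a library left out. FAP WT over Misc WT (11) gave 6 at 0.01 and 7 to 12 with a library left out. FAP DKO over SMP DKO (30) gave 18 at 0.01, and Misc WT over SMP WT (35) gave 20. With a library left out the ranges were 18 to 33 for FAP DKO, 24 to 44 for FAP WT, 18 to 31 for Misc DKO and 23 to 45 for Misc WT, each over SMP. Cox6a1 in SMP turned sign with the length trend removed (−0.01), as did the Misc median (0.11) without Misc DKO replicate 1 (−0.01; −0.01 to 0.17 over all libraries left out). The FAP median (−0.05) ranged from −0.13 to 0.03 and that of FAP DKO over Misc DKO (−0.05) from −0.16 to 0.02.

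A replicate block by number gave 5 calls for Misc minus SMP. A replicate block by genotype and number gave 6 for FAP DKO over Misc DKO, 26 for FAP WT over Misc WT and 3 for Misc minus FAP; under either block no other count moved by over 1.5 times. DKO and WT libraries of the same number did not deviate together in every pair (−0.06 to 0.29 in FAP, −0.16 to 0.03 in Misc, −0.05 in SMP). For 127 values of single genes, 1710 of 1864 alternatives kept the side of the threshold and, where called, the direction; 138 no longer passed, 15 newly passed and 1 called value turned sign. With 2 libraries a group, SMP tests recovered 10% of simulated 1.5-fold changes, so SMP genes without a call may differ by that much. The simulation changed far fewer genes than the 3257 called in SMP. This makes the adjusted threshold stricter there, so recovery in the data can be higher than 10%.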
